A study of Mus musculus with 12 samples.

Results

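Cytochrome P450 families 1 to 3 were followed in mouse liver during the first 24 h of regeneration. Members were all coding probes whose RefSeq identifier named a gene of the CYP1, CYP2 or CYP3 family and that the scanner software called well above background on at least 3 of the 12 arrays. The array carried 61 such coding probes, and 58 of them, for 57 genes in 17 subfamilies, met the rule, of 31168 probes of all kinds that met it. Cyp1a1 had 2 probes and every other member gene had 1. The 3 probes that did not meet it were Cyp2b23 (well above background on 2 arrays), Cyp2b13 (on 1) and Cyp2j11 (on 0), and 49 of the 58 members were well above background on all 12 arrays.

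Livers came from male wildtype C57BL/6 mice of 6 weeks, taken 0 h, 1.5 h, 12 h or 24 h after surgical removal of 2/3 of the organ (partial hepatectomy), with 3 mice and 3 arrays per time point. The 0 h livers were the reference, no sham-operated mice were analysed here, and the hour of day at which each liver was taken is not given in the sources used here. Total RNA of the whole liver was labelled with Cy3 and hybridised to an Agilent array, so fewer cells of a type and less RNA per cell cannot be told apart.

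P450 enzymes of these families are heme proteins of the endoplasmic reticulum that take electrons from P450 oxidoreductase and put an oxygen atom into drugs, toxins, steroids, fatty acids and vitamins. Hepatocytes hold most of them, many of them in the cells around the central vein. Their genes answer to ligand-activated regulators, chiefly the aryl hydrocarbon receptor for CYP1, the constitutive androstane receptor (CAR) for CYP2B and the pregnane X receptor (PXR) for CYP3A, and several mouse genes differ between the sexes under growth hormone. The families expanded in the mouse by gene duplication, so many members have close copies whose transcripts one probe may bind together.

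Each level below is a log2 intensity from which the array's own 75th percentile was taken off, so a level of 0 is the brightness at that percentile, and levels are compared only within a probe. Differences were tested with limma over all 31168 probes, with Benjamini-Hochberg adjustment and a threshold of 0.05, and "rose", "fell" or "passed" below refers to that test. The second 24 h array was far brighter, with a 75th percentile of 6018.3 intensity units against 428.5 to 583.7 elsewhere. Arrays that share a scan date and a scan identifier in the file headers were taken here to lie on the same slide, which the headers do not name. The second 24 h array was the only one from its slide and had 540 outlier spots, against 19 to 40 on the others. Of the 58 members, 23 were more than 1 log2 unit lower on it than the mean of the other 24 h arrays and 12 were more than 1 log2 unit higher, and Cyp2c40, Cyp2d10 and Cyp2d11 had no value on it, so their 24 h fits rest on 2 arrays. Counts at 24 h are therefore given with and without it, and so is each gene's value where leaving it out moves the fold by over 1.5 times or ends the call. The 0 h arrays all lay on slide 1 with 1 array of 1.5 h, the other 1.5 h arrays and 2 of the 12 h arrays on slide 2, and the last 12 h array with 2 of the 24 h arrays on slide 3. A fit with slide as a block allows each slide its own offset, so the second 24 h array has no weight in its 24 h means. The hepatocyte markers Alb, Apoa1, Apob, Apoc3, Fgb, Serpina1a, Trf and Ttr were measured on the arrays, with a summed level (log2) of 10.73 to 10.81 at 0 h, 10.71 to 11.53 at 1.5 h, 10.97 to 11.77 at 12 h and 9.41 to 10.82 at 24 h, and the lowest of these was on the second 24 h array.

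At 1.5 h after surgery no member passed the test against 0 h, when 0.0225% of all probes did. By limma 5 of the 58 members had an unadjusted p under 0.05, among them the near-identical copies Cyp3a41a and Cyp3a41b. This count has no share of all probes beside it. Of 23 other settings 22 also called 0 members. The exception was the fit without the second 24 h array, in which 0.594% of all probes passed and Cyp2s1, a P450 of epithelia outside the liver that acts on retinoids, was the 1 member called (log2 difference 1.26, adjusted p = 0.0359). Its levels were −1.17, −1.35 and −1.54 at 1.5 h, against −2.31, −2.72 and −2.82 at 0 h, without overlap, and on all 12 arrays its adjusted p was 0.514. In the fit with slide as a block 0.0545% of all probes and 0 members passed. The next smallest unadjusted p-values belonged to Cyp3a57 and Cyp3a41b, members of the CYP3A cluster. Cyp3a57 had 1.01, −0.59 and −0.29 at 1.5 h, against 1.37, 1.33 and 1.72 at 0 h, and the 1.5 h array that shared the 0 h slide was the one nearest to 0 h.

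At 12 h a larger share of the members than of all probes fell, whereas the share that rose was near that of all probes. Against 0 h, 17 of 58 members fell (29.3%, where 8.26% of all probes fell) and 4 rose (6.9%, where 7.06% of all probes rose). The median log2 difference was −0.66 over the members, 0.24 over all coding probes and 0.42 over all probes. The 17 that fell were 9 of the 15 Cyp2c probes, 5 of the 9 Cyp3a probes, Cyp2j5, Cyp2j9 and Cyp2r1, and the 4 that rose were Cyp2b10, Cyp2b9, Cyp3a13 and Cyp1b1. None of the 8 Cyp2d, 4 Cyp2a or 3 Cyp1a probes passed, and their median log2 differences were −0.36, −0.64 and −1.0.

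**Figure D1:**
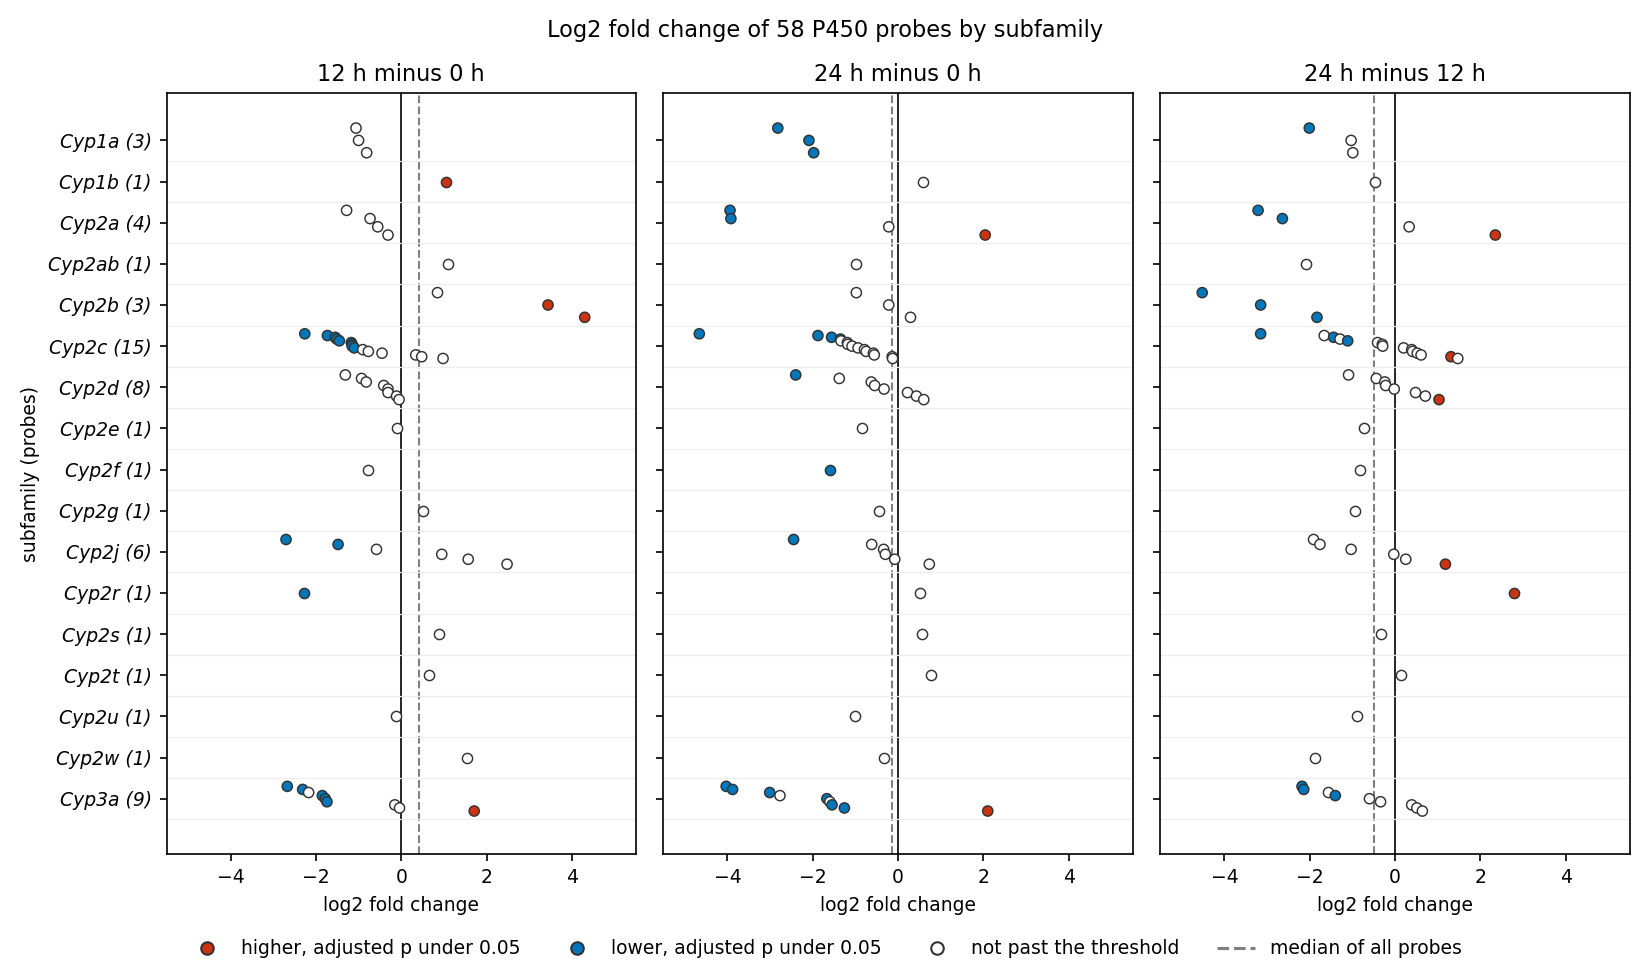
Log2 fold change (x axis) of each of the 58 probes by subfamily (rows, number of probes in brackets) for 12 h minus 0 h, 24 h minus 0 h and 24 h minus 12 h. Red and blue points passed the adjusted p threshold of 0.05, white points did not, the dashed line is the median of all probes, and the Cyp2b points lie right of 0 in the first panel and left of it in the third.

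Cyp2b10, which hydroxylates drugs and steroids and is the classical target of CAR and of phenobarbital in mouse liver, showed the largest rise among the members at 12 h. Its levels were −1.21, 0.30 and 0.05 at 0 h, then 2.43, 0.11 and 3.15 at 1.5 h, then 4.62, 3.05 and 4.37 at 12 h and 0.21, −1.95 and 0.21 at 24 h. The 12 h arrays all lay above the 0 h arrays, whereas the 1.5 h arrays spread from the 0 h level to the 12 h level. The rise at 12 h was 19.7-fold (log2 4.30 ± 0.84 SE, adjusted p = 0.00674), and at 24 h the level was 23.0-fold lower than at 12 h (log2 −4.52 ± 0.84 SE, adjusted p = 0.0129; 14.0-fold without the second 24 h array, adjusted p = 0.0141). Cyp2b9, its neighbour in the CYP2B subfamily and the form more abundant in female mice, had −1.52, 0.19 and 0.23 at 0 h, then 2.56, −0.78 and 2.42 at 1.5 h, then 3.61, 2.18 and 3.42 at 12 h and −0.31, 0.93 and −0.85 at 24 h. It rose 10.8-fold at 12 h (adjusted p = 0.0243) and stood 8.88-fold lower at 24 h than at 12 h (adjusted p = 0.0425), calls lost in 7 and 14 of 23 other settings. The array numbered 2 was the lowest for both genes at 1.5 h and at 12 h. For both, the 24 h levels overlapped those at 0 h. The 12 h rises in the slide-blocked fit were 4.92 ± 1.46 for Cyp2b10 and 5.0 ± 1.57 for Cyp2b9 (log2, SE), and the adjusted p-values were 0.106 and 0.121. Cyp2b19, which in mouse skin makes arachidonic acid epoxides, was at 0.54, 0.64 and 0.33 at 12 h, against −0.01, −0.54 and −0.47 at 0 h, a difference that did not pass (adjusted p = 0.211). Its 1.5 h arrays were at 0.92 and 0.57 on slide 2 and −0.48 on slide 1.

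The promoters of the 3 CYP2B genes are shown because all 3 fell from 12 h to 24 h. The windows, from 250 bases before to 50 after the annotated start, are RefSeq sequence of the GRCm38.p6 build on the plus strand. Capitals mark any match, on either strand, to one of 5 motifs, namely the xenobiotic response core GCGTG, the nuclear receptor core AGGTCA, the D-box TTATGNAA of the clock-output factors Dbp, Tef and Hlf, the STAT site TTCNNNGAA and the C/EBP site TTNNGCAA. The run TTGCATAA matches both the D-box and the C/EBP site on the minus strand, so the last pair overlap there.
Cyp2b10, chr7:25897408-25897707: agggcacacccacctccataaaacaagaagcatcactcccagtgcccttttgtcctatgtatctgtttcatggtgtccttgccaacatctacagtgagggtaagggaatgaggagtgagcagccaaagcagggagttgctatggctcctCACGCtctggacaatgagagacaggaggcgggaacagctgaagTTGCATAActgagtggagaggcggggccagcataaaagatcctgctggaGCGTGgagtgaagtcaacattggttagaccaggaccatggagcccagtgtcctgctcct
Cyp2b9, chr7:26173159-26173458: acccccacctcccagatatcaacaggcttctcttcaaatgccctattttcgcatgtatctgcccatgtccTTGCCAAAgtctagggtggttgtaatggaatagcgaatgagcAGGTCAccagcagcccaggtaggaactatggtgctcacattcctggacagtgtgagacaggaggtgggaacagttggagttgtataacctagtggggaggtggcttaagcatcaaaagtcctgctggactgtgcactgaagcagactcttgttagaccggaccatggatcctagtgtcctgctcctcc
Cyp2b19, chr7:26756892-26757191: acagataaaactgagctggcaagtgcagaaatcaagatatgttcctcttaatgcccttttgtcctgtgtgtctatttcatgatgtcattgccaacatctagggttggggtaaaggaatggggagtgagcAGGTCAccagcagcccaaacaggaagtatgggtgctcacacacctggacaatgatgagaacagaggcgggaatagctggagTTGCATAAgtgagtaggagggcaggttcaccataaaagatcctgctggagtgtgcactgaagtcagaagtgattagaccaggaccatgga
The Cyp2b10 window holds GCGTG at 2 places and the D-box at position −58 from the start, and the Cyp2b9 window holds AGGTCA and a C/EBP match but no D-box match. The Cyp2b19 window holds AGGTCA and a D-box at position −40. The D-box occurs in 3.38% of the 32851 promoter windows of all genes and in 4 of the 53 windows found for 50 of the 57 member genes (7.55%), those of Cyp2a4, Cyp2a5, Cyp2b10 and Cyp2b19. AGGTCA occurs in 32.1% of the member windows and 16.3% of all windows, the C/EBP site in 24.5% and 10.8%, GCGTG in 20.8% and 32.4%, and the STAT site in 1.89% and 8.3%. These are letter matches and no binding was measured.

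Cyp3a13, a drug- and steroid-oxidising CYP3A form that responds to PXR, rose and stayed up. It had −1.18, −0.60 and −0.54 at 0 h, −0.53, −0.55 and −0.16 at 1.5 h, 1.02, 1.07 and 0.72 at 12 h and 1.40, 1.88 and 0.70 at 24 h. Each array at 12 h and 24 h lay above each array at 0 h and 1.5 h. The rise was 3.27-fold at 12 h (log2 1.71 ± 0.33 SE, adjusted p = 0.00604) and 4.29-fold at 24 h (2.10 ± 0.33, adjusted p = 0.00562; 1.83 without the second 24 h array, adjusted p = 0.00354). The slide-blocked differences were 1.64 and 1.98, with adjusted p-values of 0.0916 and 0.252. Cyp1b1, which oxidises aromatic hydrocarbons and estradiol and is found mainly outside hepatocytes, rose 2.08-fold at 12 h, with levels of −1.05, −1.15 and −1.61 at 12 h against −2.26, −2.27 and −2.45 at 0 h (adjusted p = 0.0279). The call of Cyp1b1 was lost in 8 of 23 other settings. At 24 h its levels of −1.86, −1.24 and −2.13 lay above those at 0 h but the difference did not pass.

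**Figure D2:**
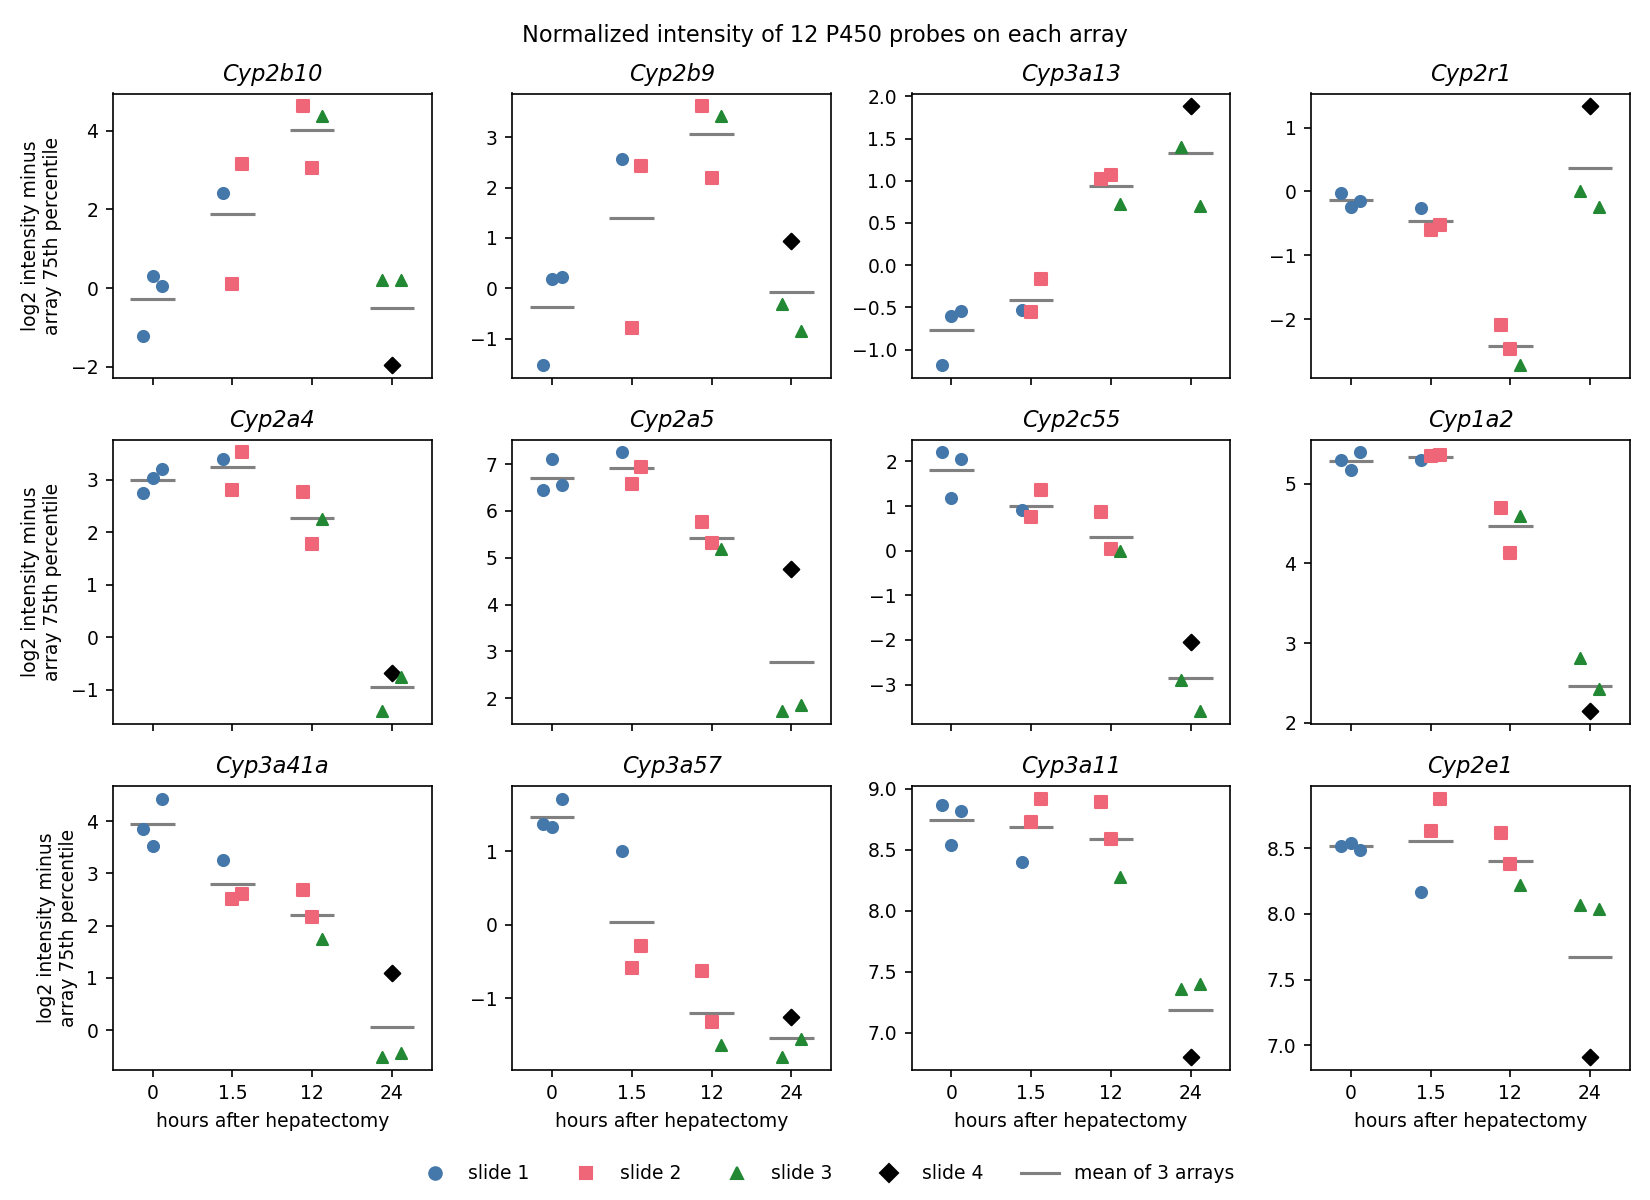
Level (log2 intensity minus the 75th percentile of the array, y axis) of 12 P450 probes on each array against hours after hepatectomy (x axis). Marker shape and colour give the slide and grey bars the mean of the 3 arrays; Cyp2b10 and Cyp2b9 peak at 12 h, Cyp2r1 dips at 12 h, and Cyp2a4, Cyp2c55 and Cyp1a2 reach their lowest levels at 24 h.

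Cyp2r1, the microsomal enzyme that makes the circulating hydroxylated form of vitamin D, fell at 12 h and was back at 24 h. It had −0.03, −0.24 and −0.15 at 0 h, −0.26, −0.61 and −0.53 at 1.5 h, −2.08, −2.47 and −2.71 at 12 h and 0.00, 1.33 and −0.24 at 24 h. The 12 h arrays stood below every other array. The fall at 12 h was 4.86-fold (log2 −2.28 ± 0.38 SE, adjusted p = 0.0029), and it also passed with slide as a block (−1.83 ± 0.29, adjusted p = 0.0205). From 12 h to 24 h the level was 6.90-fold higher (adjusted p = 0.00384), and 2.30 on the log2 scale without the second 24 h array (adjusted p = 0.000874).

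Among the Cyp2c genes, many of which turn arachidonic acid into epoxides and hydroxylate drugs, Cyp2c38 had −3.46, −3.76 and −3.74 at 12 h, against −1.45, −1.56 and −1.16 at 0 h. It fell 4.80-fold (adjusted p = 0.028; adjusted p = 0.0313 with slide as a block), and at 24 h its levels of −0.76, −3.79 and −1.99 spanned the range from 0 h to 12 h. Its fall was −0.56 on the log2 scale and did not pass when the background was corrected with normexp, and it also missed the threshold when any 1 array of 0 h or 12 h was left out. Cyp2c37, another epoxide-forming enzyme that responds to CAR, had 3.23, 2.58 and 3.05 at 12 h, against 4.60, 4.59 and 4.85 at 0 h, a 3.31-fold fall (adjusted p = 0.0304). The other 7 Cyp2c probes that fell, those of Cyp2c23, Cyp2c39, Cyp2c40, Cyp2c55, Cyp2c67, Cyp2c68 and Cyp2c69, had log2 differences between −1.55 and −1.10. Cyp2c39, a retinoic acid hydroxylase, then recovered, with 2.38, 0.92 and 1.13 at 24 h against 0.47, 0.05 and −0.01 at 12 h (2.47-fold higher, adjusted p = 0.0477), a call lost in 15 of 23 other settings.

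Cyp2j5 and Cyp2j9, which form arachidonic acid epoxides, were the 2 of 6 Cyp2j probes that fell at 12 h. Cyp2j5 had −0.39, −0.56 and −1.0 at 12 h, against 1.05, 0.63 and 0.82 at 0 h (2.79-fold lower, adjusted p = 0.00647), and it recovered to 0.98, 0.29 and 0.32 at 24 h (2.26-fold higher than at 12 h, adjusted p = 0.0302), a call lost in 12 of 23 other settings. Cyp2j9 had 0.81, 0.05 and 0.19 at 0 h, −0.05, −1.17 and −0.94 at 1.5 h, −1.59, −2.55 and −2.90 at 12 h and −3.04, −0.69 and −2.58 at 24 h. It stayed low at 24 h on 2 of the 3 arrays. Its fall was 6.49-fold at 12 h (adjusted p = 0.0118) and 5.47-fold at 24 h (adjusted p = 0.0364; 8.92-fold without the second 24 h array), where the call was lost in 12 of 23 other settings, and with slide as a block the log2 differences shrank to −1.41 and −1.32 (adjusted p = 0.204 and 0.548).

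In the Cyp3a cluster the 5 probes that fell at 12 h were Cyp3a25, Cyp3a41a, Cyp3a41b, Cyp3a57 and Cyp3a59, with log2 differences between −2.67 and −1.74. Cyp3a25, a steroid-oxidising form of adult liver, had 6.51, 6.10 and 6.30 at 0 h, 5.74, 6.09 and 6.27 at 1.5 h, 4.76, 4.34 and 4.47 at 12 h and 4.97, 4.95 and 5.19 at 24 h. It fell 3.43-fold at 12 h (adjusted p = 0.00116), a call that held in all 23 other settings tried, as did that of Cyp3a59. Cyp3a59 had 3.40, 2.90 and 2.83 at 12 h, against 5.24, 5.37 and 5.44 at 0 h, 4.96-fold lower (adjusted p = 0.00242). Both of these also passed with slide as a block, at −2.19 and −1.85. Their promoter windows were 96.3% identical, and the probes cannot be taken to separate the transcripts, so these may not be separate falls. Cyp3a57 fell 6.38-fold at 12 h, with −0.63, −1.33 and −1.64 against 1.37, 1.33 and 1.72 at 0 h (adjusted p = 0.00208), and its 1.5 h arrays on slide 2 differed from the one on slide 1 by a mean of −1.45 log2 units. In the slide-blocked fit its 12 h difference was −1.01 (adjusted p = 0.211).

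The fit without the second 24 h array called more members, 28 lower and 12 higher at 12 h against 0 h, when 16.6% of all probes were called lower and 32.6% higher. It kept all 21 calls above. The 0 h and 12 h levels are the same in both fits, so the log2 differences did not change and only the estimate of the spread did. On slide 2, 2 arrays of 12 h can be set beside 2 of 1.5 h. There all 17 probes that fell were lower at 12 h (median log2 difference −1.26) and all 4 that rose were higher. Those 12 h arrays also helped to choose these probes, so the agreement in sign is not independent of that choice. With slide as a block, when 2.02% of all probes were called lower and 2.13% higher, all 21 kept their sign, but 4 of the 17 falls passed (Cyp2c38, Cyp2r1, Cyp3a25 and Cyp3a59) and none of the 4 rises did. Markers of other cells moved at the same time: 5 of 6 neutrophil marker probes rose at 12 h, with a summed level (log2) of 4.99 to 5.35 at 12 h against 0.10 to 0.78 at 0 h, and 4 of 7 adipose marker probes rose, with 4.14 to 4.44 against −0.72 to −0.09. Their part in the fall of the P450 probes was not tested.

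At 24 h the steepest falls were those of Cyp2c55, Cyp3a41b, Cyp2a4, Cyp2a5, Cyp3a41a, Cyp3a57 and Cyp1a2. Against 0 h, 18 of 58 members fell (31.0%, where 2.62% of all probes fell) and 2 rose (3.45%, where 2.84% of all probes rose). The median log2 difference was −0.89 over the members, −0.06 over all coding probes and −0.15 over all probes. Without the second 24 h array 24 members fell, including all 18, and 4 rose, including both, when 6.67% and 10.3% of all probes were called lower and higher, and the members' median was −0.48 beside 0.11 for coding probes. With slide as a block, when 0.093% of all probes were called lower and 0.173% higher, Cyp2a5 alone passed (log2 −4.06 ± 0.53 SE, adjusted p = 0.0329), although all 18 falls and both rises kept their sign, with a median of −1.58 for the falls against −2.24 in the fit without the block. The median of the same 18 falls was −1.96 without the second 24 h array, which has no weight under the block either. The neutrophil markers were still high, with 4 of 6 probes risen and a summed level (log2) of 4.75 to 5.44 at 24 h against 0.10 to 0.78 at 0 h, and 3 of 7 adipose probes had risen, with 2.46 to 5.90 against −0.72 to −0.09. Their part in the 24 h falls was not tested.

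Cyp2a4 and Cyp2a5, a steroid hydroxylase and a coumarin hydroxylase that also acts on nicotine, are near copies and both dropped between 12 h and 24 h. Cyp2a4 had 2.74, 3.04 and 3.20 at 0 h, 3.40, 2.81 and 3.52 at 1.5 h, 2.77, 1.78 and 2.25 at 12 h and −1.40, −0.67 and −0.75 at 24 h. Cyp2a5 had 6.45, 7.10 and 6.55 at 0 h, 7.25, 6.57 and 6.95 at 1.5 h, 5.76, 5.32 and 5.18 at 12 h and 1.73, 4.76 and 1.85 at 24 h. The 24 h arrays lay below all others for both genes, and the second 24 h array stood well above the other 24 h arrays for Cyp2a5. Cyp2a4 was 15.3-fold lower at 24 h than at 0 h (log2 −3.94 ± 0.33 SE, adjusted p = 0.000209; −4.07 without the second 24 h array, adjusted p = 0.00012). Cyp2a5 was 15.2-fold lower (−3.92 ± 0.66, adjusted p = 0.0088; 30.1-fold without that array). Against 12 h the 24 h levels were 9.24-fold lower for Cyp2a4 (adjusted p = 0.00171) and 6.23-fold lower for Cyp2a5 (adjusted p = 0.0331; 12.4-fold without the second 24 h array), and both passed with slide as a block. The Cyp2a5 call against 12 h was lost in 10 of 23 other settings.

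Their promoters are shown because the genes fell together and the sequences differ at few bases. Capitals mark the same motifs, and both windows are RefSeq sequence on the plus strand of the GRCm38.p6 build.
Cyp2a4, chr7:26306942-26307241: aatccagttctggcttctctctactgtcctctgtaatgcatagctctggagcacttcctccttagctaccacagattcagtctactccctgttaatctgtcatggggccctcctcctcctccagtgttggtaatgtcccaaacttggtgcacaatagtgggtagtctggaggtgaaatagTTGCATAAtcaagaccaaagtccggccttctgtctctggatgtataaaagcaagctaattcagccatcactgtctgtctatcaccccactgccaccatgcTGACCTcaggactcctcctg
Cyp2a5, chr7:26835089-26835388: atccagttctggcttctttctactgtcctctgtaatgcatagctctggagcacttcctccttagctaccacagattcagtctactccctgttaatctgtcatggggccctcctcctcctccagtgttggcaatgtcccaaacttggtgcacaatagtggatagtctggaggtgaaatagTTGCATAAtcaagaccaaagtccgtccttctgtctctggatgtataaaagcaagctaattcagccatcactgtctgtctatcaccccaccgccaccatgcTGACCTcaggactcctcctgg
The windows were 97.7% identical (1 minus the edit distance over the 300 bases), and each holds the D-box, which overlaps the C/EBP match, and AGGTCA. The SD over the arrays of the difference between the probes was 0.73 log2 units.

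Cyp2c55, which makes hydroxylated and epoxidised fatty acids and responds to CAR and PXR, showed the steepest fall of any member at 24 h. It had 2.20, 1.18 and 2.05 at 0 h, 0.90, 0.76 and 1.36 at 1.5 h, 0.87, 0.04 and 0.00 at 12 h and −2.90, −2.05 and −3.59 at 24 h. Levels at 12 h and at 24 h did not overlap those at 0 h. It was 2.84-fold lower at 12 h (adjusted p = 0.0401) and 25.2-fold lower at 24 h (log2 −4.66 ± 0.43 SE, adjusted p = 0.000372; −5.05 without the second 24 h array). Cyp1a2, the hepatocyte enzyme that clears caffeine and activates aromatic amines, had 5.30, 5.17 and 5.39 at 0 h, 5.30, 5.34 and 5.36 at 1.5 h, 4.69, 4.13 and 4.59 at 12 h and 2.81, 2.15 and 2.43 at 24 h. The spread at 0 h and 1.5 h was small beside the step at 24 h, which was 7.07-fold against 0 h (log2 −2.82 ± 0.25 SE, adjusted p = 0.00029) and 4.02-fold against 12 h (adjusted p = 0.00308). At 12 h its difference from 0 h of −0.81 missed the threshold (adjusted p = 0.0521). Cyp1a1, the inducible form that the aryl hydrocarbon receptor drives, fell at 24 h by both probes, which had −3.16, −5.48 and −3.82 and −3.34, −5.32 and −3.85 at 24 h, against −2.43, −2.06 and −2.03 and −2.22, −2.07 and −1.95 at 0 h. The falls were 3.95-fold and 4.26-fold in the same order of probes (adjusted p = 0.0395 and 0.0201), and −1.32 and −1.52 on the log2 scale without the second 24 h array, which was the lowest.

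Cyp3a41a and Cyp3a41b, CYP3A forms more abundant in adult female mice, are near-identical copies and were well above background on every array from these males. Cyp3a41a had 3.85, 3.53 and 4.43 at 0 h, 3.25, 2.50 and 2.61 at 1.5 h, 2.68, 2.17 and 1.74 at 12 h and −0.51, 1.1 and −0.43 at 24 h. The difference between its probe and that of Cyp3a41b had an SD of 0.12 log2 units over the 12 arrays. The levels at 1.5 h already lay below those at 0 h on all 3 arrays without passing the test. At 24 h the falls were 14.8-fold and 16.4-fold (adjusted p = 0.0013 and 0.000626), and −4.41 and −4.46 on the log2 scale without the second 24 h array, which was the highest of its group. Against 12 h they were 4.42-fold and 4.53-fold lower (adjusted p = 0.021 and 0.0141), and these steps passed with slide as a block. Since the probes cannot be taken to separate the 2 transcripts, they are best read as 1 measurement. Their windows are shown because their probes had the smallest spread of any pair and the windows were 97.3% identical, and neither holds any of the 5 motifs. Both are RefSeq sequence on the minus strand of the GRCm38.p6 build.
Cyp3a41a, chr5:145720087-145720386: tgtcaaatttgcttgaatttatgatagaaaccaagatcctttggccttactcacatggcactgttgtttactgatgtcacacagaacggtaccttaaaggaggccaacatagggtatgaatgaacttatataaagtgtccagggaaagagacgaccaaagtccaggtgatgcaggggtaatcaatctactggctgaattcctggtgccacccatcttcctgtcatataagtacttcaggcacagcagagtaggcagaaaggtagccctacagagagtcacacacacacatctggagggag
Cyp3a41b, chr5:145584681-145584980: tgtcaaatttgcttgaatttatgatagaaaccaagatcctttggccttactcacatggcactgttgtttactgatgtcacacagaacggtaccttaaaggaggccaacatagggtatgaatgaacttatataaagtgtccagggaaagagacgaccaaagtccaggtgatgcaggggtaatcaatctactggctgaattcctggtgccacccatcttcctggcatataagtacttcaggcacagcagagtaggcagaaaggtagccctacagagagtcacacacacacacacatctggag

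Cyp3a11, the main CYP3A drug oxidase of adult mouse liver and a PXR target, had 8.87, 8.54 and 8.82 at 0 h, 8.40, 8.73 and 8.92 at 1.5 h, 8.89, 8.59 and 8.28 at 12 h and 7.36, 6.80 and 7.40 at 24 h. It overlapped its 0 h level until 12 h and was below all earlier arrays at 24 h, 2.94-fold lower than at 0 h (adjusted p = 0.011; −1.36 on the log2 scale without the second 24 h array). Cyp2c29, an epoxide-forming enzyme that responds to CAR, had 6.17, 4.55 and 5.84 at 24 h, against 7.54, 7.27 and 7.41 at 0 h (3.69-fold lower, adjusted p = 0.0169; 2.64-fold without the second 24 h array). Cyp2f2, known from naphthalene activation in lung club cells and placed around the portal vein in liver, had 6.87, 6.47 and 5.94 at 24 h, against 8.07, 8.04 and 7.97 at 0 h (3.03-fold lower, adjusted p = 0.0139). Cyp3a57 remained low at 24 h, 8.08-fold below 0 h (adjusted p = 0.00311). The other 5 probes that fell at 24 h were Cyp2c23, Cyp2c40, Cyp2d12, Cyp3a25 and Cyp3a59, at log2 differences from −2.40 to −1.26; Cyp2d12 was at −1.68 without the second 24 h array.

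Cyp2a22 was the second member that rose at 24 h besides Cyp3a13. It had −3.83, −4.02 and −3.50 at 24 h, against −5.94, −6.45 and −5.07 at 0 h, where it was not well above background on any array. Its rise was at least 2.32-fold (adjusted p = 0.0341), where the bound sets the 24 h mean against, per 0 h array, the higher of its own signal and the dimmest probe well above background. Against 12 h, where it was also below background on all 3 arrays, it was at least 3.57-fold (adjusted p = 0.0179). Both adjusted p-values are those of the differences without the bound. Cyp2a22 met the rule for members through the 1.5 h and 24 h arrays, 3 of its 5 detections being at 24 h, so these tests are not independent of how it was chosen. The call against 0 h was lost in 8 of 21 other settings. The bound applies to the levels on all 12 arrays without a block, and smaller rises were found in other settings. With slide as a block the rise against 0 h was 1.67-fold (adjusted p = 0.864). The lowest log2 difference from 0 h over the other settings was 0.14.

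From 12 h to 24 h, 12 members fell (20.7%, where 6.78% of all probes fell) and 5 rose (8.62%, where 6.26% of all probes rose). The 12 that fell were all 3 Cyp2b probes, Cyp1a2, Cyp2a4, Cyp2a5, Cyp2c29, Cyp2c55, Cyp2c66, Cyp3a11, Cyp3a41a and Cyp3a41b, and the 5 that rose were Cyp2a22, Cyp2c39, Cyp2d26, Cyp2j5 and Cyp2r1. Cyp2b19 had −0.80, −2.30 and −0.87 at 24 h, against 0.54, 0.64 and 0.33 at 12 h (3.56-fold lower, adjusted p = 0.0317), and −1.17 on the log2 scale with slide as a block (adjusted p = 0.0398). Cyp2d26 had 5.48, 5.13 and 4.87 at 24 h, against 4.20, 3.82 and 4.36 at 12 h (2.05-fold higher, adjusted p = 0.0386), a call lost in 14 of 23 other settings. Without the second 24 h array 14 fell and 6 rose, when 7.4% and 8.37% of all probes were called lower and higher, and only Cyp2c66 of the first calls was lost (adjusted p = 0.0539). With slide as a block 10 fell and 3 rose, when 3.62% and 5.26% of all probes did, and 8 of the 12 falls and 2 of the 5 rises above were among them. Within slide 3, which held 2 arrays of 24 h and 1 of 12 h, all 17 differences kept their sign. That sign was fixed beforehand, since for each of these probes the 24 h arrays did not overlap the 12 h arrays.

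**Figure D3:**
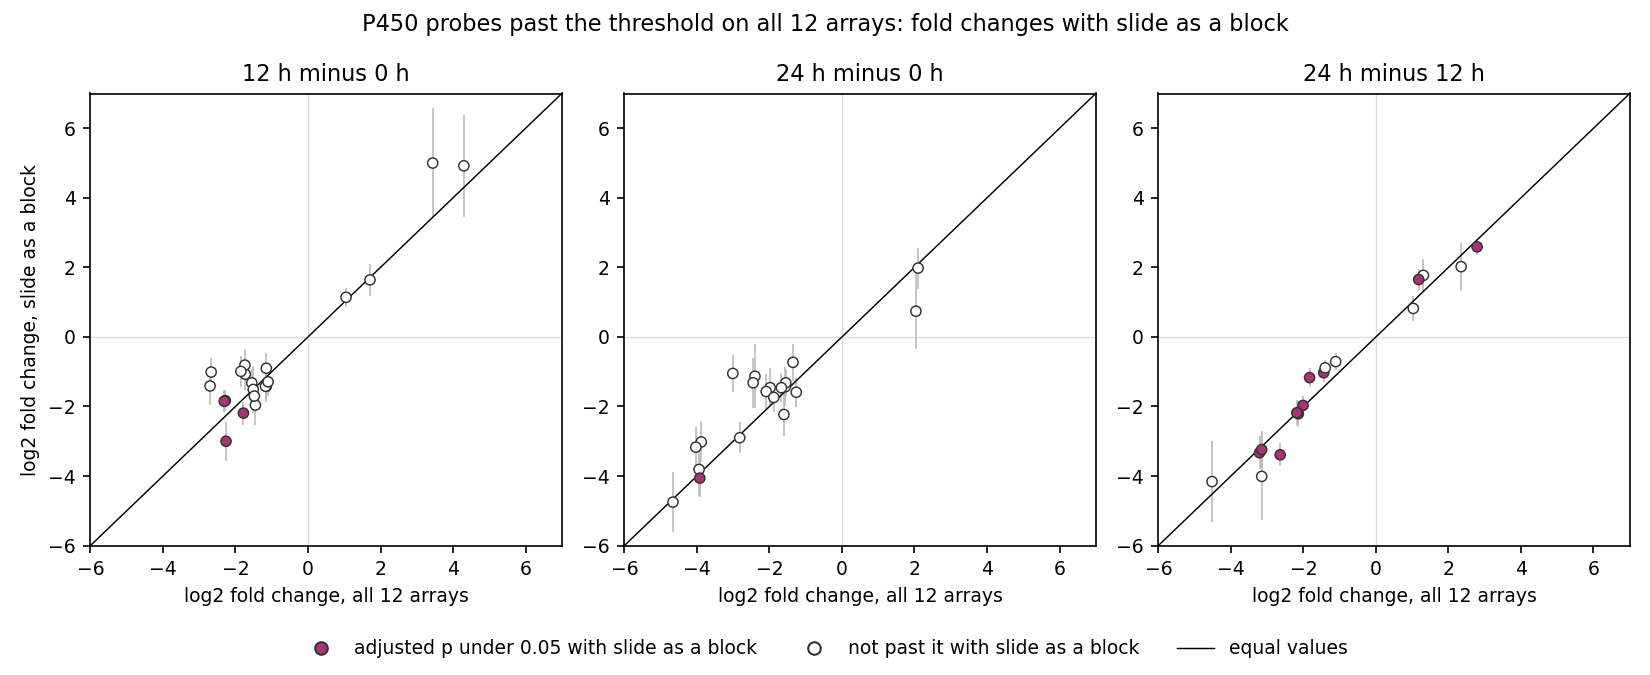
Log2 fold change with slide as a block (y axis, bars are the SE) against log2 fold change on all 12 arrays without it (x axis) for the P450 probes that passed without the block. Filled points also passed with the block, 4 of 21 for 12 h minus 0 h, 1 of 20 for 24 h minus 0 h and 10 of 17 for 24 h minus 12 h; no point changes sign, and the line marks equal values.

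The probes that lost over 1.5-fold of their difference with the block were Cyp2c37, Cyp2j9, Cyp3a41a, Cyp3a41b and Cyp3a57 at 12 h, these but Cyp2c37 together with Cyp2c40, Cyp2d12 and Cyp2a22 at 24 h, and Cyp2b19 from 12 h to 24 h. The block gives the second 24 h array no weight, so the 24 h changes hold both effects. From 12 h to 24 h Cyp2b19 was at −1.83 on all arrays, −1.34 without that array and −1.17 with the block (log2). Cyp2d12 at 24 h against 0 h was at −2.40, −1.68 and −1.13 in the same order. The 24 h differences of Cyp2a22, Cyp2j9, Cyp3a41a and Cyp3a41b from 0 h were larger without that array than on all arrays. At 1.5 h, the one time point on both slides, 4 members were more than 1 log2 unit lower on slide 2 than on slide 1 and 6 were more than 1 log2 unit higher. Cyp3a44, more abundant in female mice, was among the 4, with 6.97, 6.64 and 7.03 at 0 h, 6.63, 4.90 and 4.95 at 1.5 h, 5.03, 4.36 and 4.73 at 12 h and 2.97, 6.23 and 3.12 at 24 h. It passed no test on all 12 arrays, and without the second 24 h array, which stood near the 0 h level, it fell by 3.83 on the log2 scale at 24 h (adjusted p = 0.00104). No slide held 0 h arrays together with 12 h or 24 h arrays, so neither comparison with 0 h can be made within a slide.

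In all, 24 of the 58 probes passed in no comparison. Cyp2e1, the ethanol- and acetaminophen-oxidising enzyme of hepatocytes around the central vein, had 8.52, 8.54 and 8.49 at 0 h, 8.17, 8.63 and 8.88 at 1.5 h, 8.62, 8.38 and 8.22 at 12 h and 8.07, 6.91 and 8.04 at 24 h. Its log2 difference was −0.11 ± 0.33 at 12 h (adjusted p = 0.823) and −0.84 ± 0.33 at 24 h (adjusted p = 0.178), and −0.46 at 24 h without the second 24 h array. Cyp2d9, the testosterone hydroxylase typical of male mice, had 7.95, 6.70 and 7.71 at 24 h, against 8.10, 7.84 and 8.07 at 0 h (−0.55 ± 0.33, adjusted p = 0.366). Cyp2d22 had 1.85, 0.25 and 1.54 at 24 h, against 2.57, 2.49 and 2.71 at 0 h, a difference of −1.38 that missed the threshold (adjusted p = 0.0663) and of −0.90 that passed without the second 24 h array (adjusted p = 0.034). A p above the threshold does not show that these genes held their level.

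Grouped by what is known of their control, the members moved in both directions. Over all probes, 7.06% rose and 8.26% fell at 12 h, and 2.84% rose and 2.62% fell at 24 h. Of the 7 listed CAR and PXR targets, Cyp2b10 and Cyp3a13 rose at 12 h while Cyp2c37, Cyp2c55 and Cyp3a25 fell, and at 24 h Cyp3a13 was higher while Cyp2c29, Cyp2c55, Cyp3a11 and Cyp3a25 were lower (median log2 difference −0.45 at 12 h and −1.34 at 24 h). Of the 3 aryl hydrocarbon receptor targets, Cyp1b1 rose at 12 h, and Cyp1a1 and Cyp1a2 fell at 24 h. Of the 12 listed epoxygenase probes, 8 fell at 12 h (66.7%, median −1.46, beside 8.26% of all probes) and 5 at 24 h (41.7%, median −1.26, beside 2.62%), and 8 fell at 24 h without the second 24 h array (beside 6.67%), when 2 of the 12 had positive differences. Cyp2b19 and the Cyp2j genes other than Cyp2j5, Cyp2j6 and Cyp2j9 were not on that list. Of 9 measured genes more abundant in female mice, 1 (Cyp2b9) rose and 4 fell at 12 h and 4 fell at 24 h. Of 3 listed male-typical genes (Cyp2d9, Cyp2d11 and Cyp2u1) 0 passed at either time, and 3 genes are too few to set against the female-typical list. The summed level (log2) of the female-typical list was 7.85 to 8.13 at 0 h, 7.31 to 7.83 at 1.5 h, 6.42 to 6.92 at 12 h and 5.86 to 6.85 at 24 h. That of the male-typical list was 7.9 to 8.16 at 0 h, 7.99 to 8.34 at 1.5 h, 7.46 to 8.03 at 12 h and 6.7 to 8.05 at 24 h.

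Within subfamilies, likeness of movement was described by the SD, over the arrays, of the difference between the probes of 2 genes. Over 194 pairs the median SD was 0.94 log2 units. The smallest belonged to Cyp3a41a and Cyp3a41b (0.12), Cyp2c68 and Cyp2c69 (0.14), Cyp2d10 and Cyp2d11 (0.19, over 11 arrays) and Cyp2c67 and Cyp2c68 (0.22). Of the 149 pairs with promoter windows, 10 were at least 90% identical there, and their median SD was 0.77. Cyp3a16 and Cyp3a44 had 93.3% identical windows and an SD of 1.58, and Cyp2c67 and Cyp2c68 60.7% identity and the 0.22 above. Cyp3a25 and Cyp3a59 had 96.3% identical windows and an SD of 0.5. The probe sequences were not used here, so a shared signal and a shared change of the transcripts cannot be told apart for these pairs. The counts of falling members count copies such as Cyp3a41a and Cyp3a41b, Cyp3a25 and Cyp3a59, or Cyp2c67, Cyp2c68 and Cyp2c69, as separate members.

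**Figure D4:**
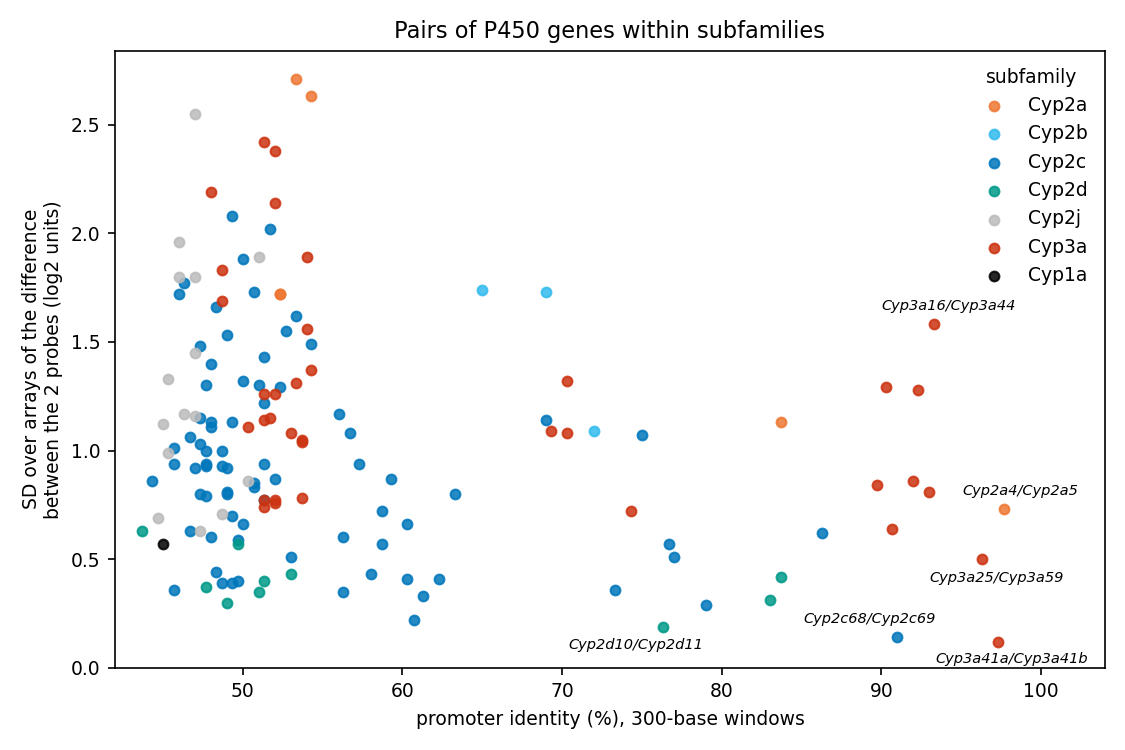
SD over the arrays of the difference between the probes of 2 genes of a subfamily (y axis, log2 units) against the identity of their 300-base promoter windows (x axis, percent) for 149 pairs, coloured by subfamily. Cyp3a41a and Cyp3a41b lie at 97.3% and 0.12, and Cyp3a16 and Cyp3a44 at 93.3% and 1.58.

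Of 22 probes for 20 genes of electron transfer and heme supply, 1 rose (4.55%) and 5 fell (22.7%) at 12 h, when 7.06% of all probes rose and 8.26% fell, and 2 rose and 2 fell (9.09% each) at 24 h, when 2.84% rose and 2.62% fell. The gene of P450 oxidoreductase, Por, passed in neither. Cyb5b, which encodes a form of cytochrome b5, had 2.86, 2.78 and 2.96 at 12 h, against 5.24, 5.18 and 5.28 at 0 h. It was 5.16-fold lower at 12 h (adjusted p = 0.00296). Hmox1, which breaks heme down, had 3.15, 4.40 and 2.88 at 24 h, against 0.95, 1.26 and 1.20 at 0 h (5.06-fold higher, adjusted p = 0.01), and had already risen at 12 h (2.90-fold, adjusted p = 0.0279). Alas1, the rate-limiting enzyme of heme synthesis, was 1.83-fold lower at 24 h than at 12 h (adjusted p = 0.0373).

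Of 41 probes for 32 regulators of these genes, 15 fell (36.6%, beside 8.26% of all probes) and 2 rose (4.88%, beside 7.06%) at 12 h, and 4 fell (9.76%, beside 2.62%) and 0 rose at 24 h, when by limma without the second 24 h array 1 rose. From 12 h to 24 h, 8 were higher (19.5%, beside 6.26%) and 1 lower (2.44%, beside 6.78%). Nr1i3, which encodes CAR, had 0.73, 1.39 and 1.06 at 12 h, against 2.40, 2.63 and 2.30 at 0 h (2.60-fold lower, adjusted p = 0.0141), and recovered to 3.55, 2.63 and 3.71 at 24 h (4.71-fold higher than at 12 h, adjusted p = 0.00415). Both probes of Nr1i2, which encodes PXR, fell at 12 h (2.68-fold and 2.69-fold, adjusted p = 0.00615 and 0.00754). Of the factors that bind the D-box, Dbp was 19.5-fold lower at 12 h (adjusted p = 0.000179) and 19.6-fold lower at 24 h (adjusted p = 0.000372), with −3.73, −4.93 and −3.22 at 24 h against 0.29, 0.26 and 0.45 at 0 h. Tef fell at both times by both of its probes, and Hlf fell 4.44-fold at 12 h (adjusted p = 0.00651) and recovered by 24 h. These 3 genes follow the daily cycle in liver, and with the hour of day not given, hours after surgery and time of day cannot be told apart for them or for the P450 genes. Tiparp, a target and brake of the aryl hydrocarbon receptor, rose at least 3.32-fold at 12 h (adjusted p = 0.00197), and the vitamin D receptor gene Vdr rose at least 3.96-fold (adjusted p = 0.00348). Both are bounds, since neither probe was well above background on any 0 h array. The adjusted p-values are those of the differences without the bound. Tiparp and Vdr, the 2 rises at 12 h, thus met the filter only through later arrays, so these tests are not independent of it.

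**Figure D5:**
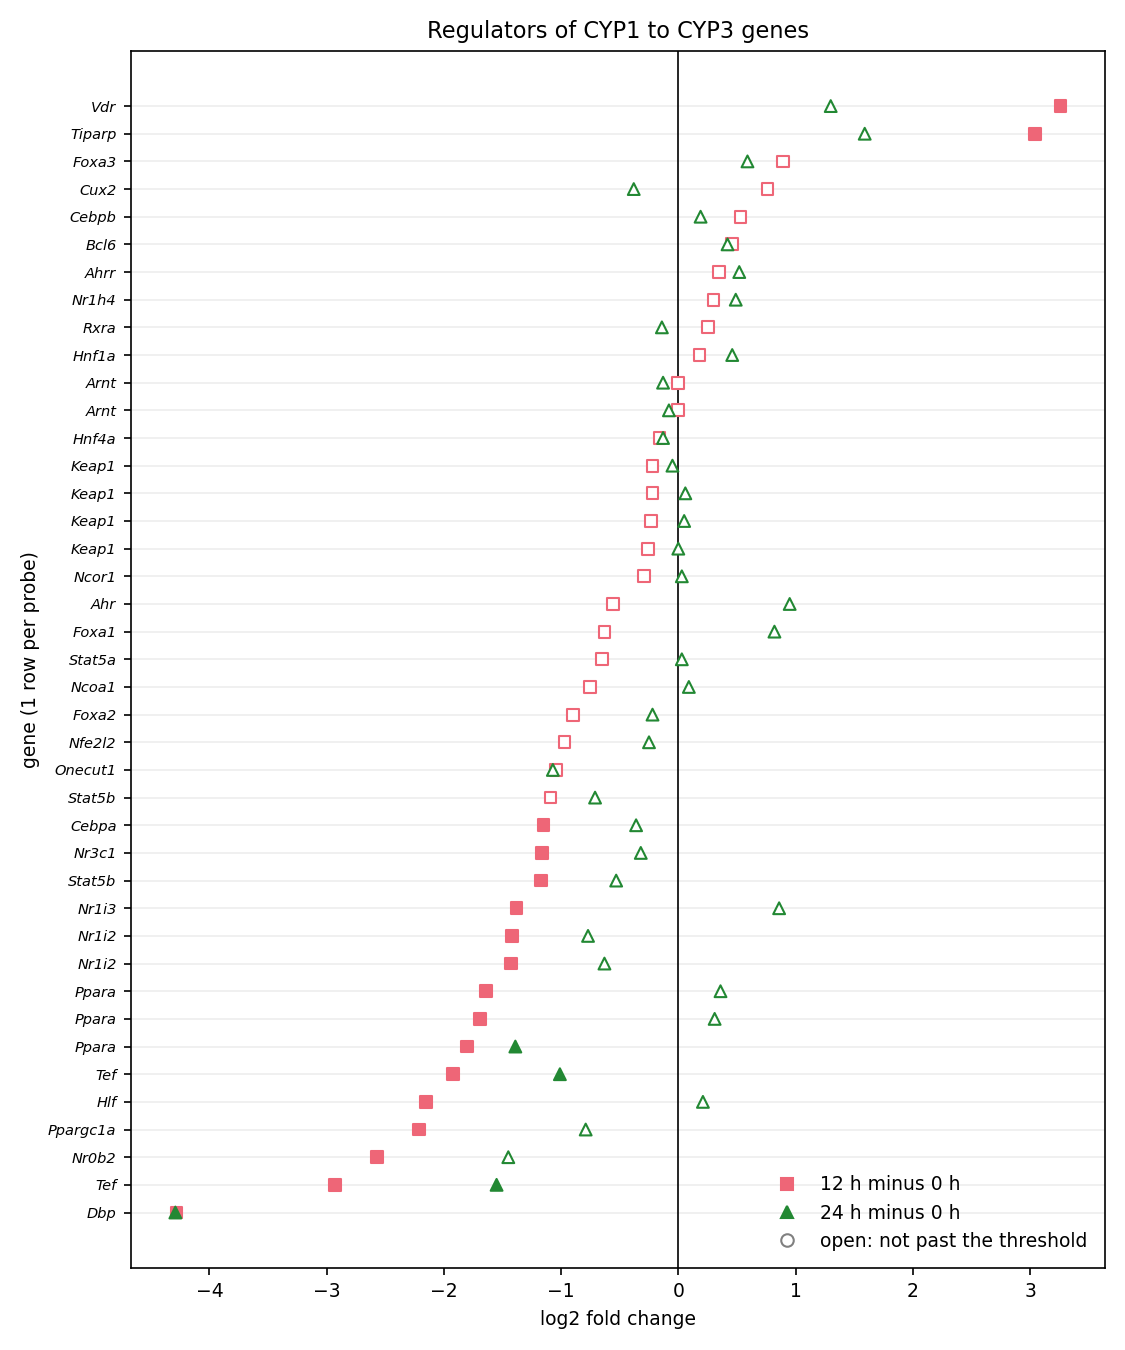
Log2 fold change (x axis) of each of 41 probes for regulators of CYP1 to CYP3 genes (rows) at 12 h minus 0 h (squares) and 24 h minus 0 h (triangles). Filled markers passed the adjusted p threshold of 0.05; the 17 filled squares are 15 falls and 2 rises, and the 4 filled triangles are Dbp, both Tef probes and 1 of 3 Ppara probes.

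The P450 genes of all other families, 37 probes, served as the nearest comparison. At 12 h, 9 of them fell (24.3%) and 3 rose, where 8.26% of all probes fell and 7.06% rose. In families 1 to 3, 17 of 58 fell and 4 rose. The median log2 difference was 0.29 beside −0.66 for families 1 to 3. At 24 h, 4 fell (10.8%) and 5 rose, where 2.62% of all probes fell and 2.84% rose. In families 1 to 3, 18 of 58 fell and 2 rose, and the medians were −0.30 beside −0.89. From 12 h to 24 h, 1 fell (2.7%) and 5 rose, where 12 (20.7%) fell and 5 rose in families 1 to 3. Of all probes, 6.78% fell and 6.26% rose over that step. The difference between the groups of families was not tested.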

How the data were processed

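Liver RNA of 12 mice, 3 at each of 4 time points, was measured on 1-colour Agilent arrays, taken here as 1 array per mouse, since the labels give 3 mice and 3 arrays per time point. The deposited scanner files hold processed intensity per spot, background-subtracted by Agilent Feature Extraction 10.5.1.1 per the file headers, and no replicates were pooled. The deposited log2 value table, whose normalization between arrays is not given in the sources used here, served only as an alternative. Outlier-flagged spots were left out, spots of a probe were averaged, and log2 intensity minus the 75th percentile of each array was used. Probes well above background on at least 3 arrays were kept. limma 3.58.1 in R 4.3.3 was fitted with 1 mean per time point over all arrays, and it was tested on simulated data. Without the slide block, the spread behind each p-value holds differences between slides as well as between mice. The arrays of each time point after 0 h lay on more than 1 slide. No 0 h array shared a slide with a 12 h or 24 h array. A slide offset in those comparisons with 0 h is therefore not covered by the p-value. The number of arrays limits the precision.

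The named genes were the 8 highest and 8 lowest of the called members in each comparison, the 3 smallest unadjusted p-values where none was called, and a fixed list of well-known members; Cyp3a44 and the other members named with values were chosen after their values were seen. The members and lists were chosen with earlier results of these data known. Alternatives changed the background correction, normalization, scaling, filter, moderation, blocks, arrays and probes per gene. Promoter identity was computed with edlib 1.3.9.post1 in Python 3.11.15.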

Additional observations from a re-analysis of the deposited data

How the results depend on the processing

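With normexp background correction 9 members fell and 1 rose at 12 h against 0 h, 8 fell and 1 rose at 24 h against 0 h, and 4 fell and 0 rose from 12 h to 24 h. The slide block gave 4 falls and 0 rises at 12 h, 1 fall and 0 rises at 24 h, and 3 rises from 12 h to 24 h. With only the 2 groups compared in the fit, 29 fell and 12 rose at 12 h, 5 fell and 0 rose at 24 h, and 0 fell and 0 rose from 12 h to 24 h. From 12 h to 24 h, 2 rose with the percentile of coding probes and 3 with no filter. At 24 h against 0 h, 1 rose in the authors' deposited log2 values and 1 with the filter on all 12 arrays. Whether replicate numbers pair the mice cannot be told from the arrays, since deviations from the group means also differ by slide. Those of same-numbered arrays correlated between −0.419 and 0.411, and those of different-numbered arrays between −0.49 and 0.507. With the replicate block 6 fell and 2 rose from 12 h to 24 h. Leaving out 1 array gave 0 to 1 calls at 1.5 h, 7 to 28 falls and 2 to 12 rises at 12 h, 7 to 24 falls and 1 to 4 rises at 24 h, and 3 to 16 falls and 1 to 6 rises from 12 h to 24 h. Falls at 12 h numbered 7, 10 and 7 without 0 h array 1, 2 or 3, 8 without 12 h array 2 or 3, and 28 without the second 24 h array. The share of all probes called was computed only for all 12 arrays, the slide block and the fit without the second 24 h array. At 12 h it was 8.26%, 2.02% and 16.6% for falls and 7.06%, 2.13% and 32.6% for rises, in that order. In the other settings the counts of members have no such share beside them. Cyp2a22 from 12 h to 24 h turned to −0.88 (log2) with normexp. Of 870 values of 38 single-gene results under alternatives, 712 kept direction and side of the threshold, 156 no longer passed, 1 newly passed and 1 reversed. The median of all probes at 12 h was 0.42, 0.57 with the percentile of coding probes and 0.15 with quantile normalization (log2). The cause of these changes was not tested. Within-slide values were added after seeing the data.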
